A study of Mus musculus with 3 samples.

Results

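The S100 proteins are small calcium-binding proteins with paired EF-hands, most of which work as dimers. S100A8 and S100A9 pair as calprotectin, are abundant in neutrophils and in monocytes newly arrived from the blood, and act outside the cell on TLR4 and on the receptor RAGE. Other members are found in epithelial cells, fibroblasts, glia or muscle, where they bind annexins, myosin or other partners in response to calcium. The members described here are S100a8 and S100a9, taken as myeloid, and S100a1, S100a4, S100a6, S100a10, S100a11, S100a13, S100a16 and S100b, taken as epithelial or stromal. They were chosen by gene symbol, as all array probe sets annotated to 1 of these 10 genes alone. This gave 14 probe sets of 9 genes, among 45037 probe sets and 18193 named genes in the whole table. The S100a11 probe set is annotated to 3 genes, S100a11 and 2 related sequences, and was therefore left out.

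Kidney RNA of 3 C57BL/6 mice was profiled on Affymetrix mouse arrays, 1 array per mouse. One group is a control mouse. The other is 2 mice that drank water with 200 mM acetate, a short-chain fatty acid, for 6 weeks from 3 weeks of age. A starting age of 3 weeks is given for the control mouse too, with no duration. All 3 were in conventional housing. The labels give no sex and do not say what the control drank, and with 1 control mouse every difference below includes whatever was particular to that kidney. Values are deposited log2 expression values, on which a difference of 1 is a 2-fold change, and a probe set's level cannot be set against that of another probe set. The tissue label was checked on 8 tubule genes, which lay between 11.43 and 13.53 on the control array, 10.90 and 13.67 in acetate-fed mouse 1, and 11.13 and 13.64 in acetate-fed mouse 2.

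S100a8, S100a9, S100a4 and S100a6 were higher in each acetate-fed kidney than in that of the control mouse, and the other 5 measured genes stayed within 1.17-fold of the control. S100a8 and S100a9 had the largest differences, S100a8 at 6.49-fold in mouse 1 and 1.91-fold in mouse 2, S100a9 at 4.90-fold and 1.96-fold. The increase reached 2-fold at 4 member probe sets in mouse 1 (1.42% of all tested probe sets did so) and at 0 in mouse 2 (0.551% of all). So 0 of the 13 member probe sets that passed the filter on low values were at least 2-fold higher in both mice, where 0.344% of all tested probe sets were, and 0 were at least 2-fold lower in both, against 0.359%. At a fold of 1.5, S100a8, S100a9 and S100a4 passed in both mice, 3 probe sets, as did 1.67% of all tested probe sets.

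The upstream sequences of these 4 genes are shown because they are the members that were higher together. Each is the 250 bases before the RefSeq transcription start on mouse build GRCm38.p6, written 5′ to 3′ on the strand of the gene. Capitals mark matches to TATAAA, a core promoter element, or to TTNNGCAA, letters bound by C/EBP factors.
S100a8, chr3:90668821-90669070, plus strand: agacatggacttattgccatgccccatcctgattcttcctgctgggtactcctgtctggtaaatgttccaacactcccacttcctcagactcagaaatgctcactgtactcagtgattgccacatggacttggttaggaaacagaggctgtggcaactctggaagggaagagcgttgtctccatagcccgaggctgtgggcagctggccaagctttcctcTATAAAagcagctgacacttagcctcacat
S100a9, chr3:90695722-90695971, minus strand: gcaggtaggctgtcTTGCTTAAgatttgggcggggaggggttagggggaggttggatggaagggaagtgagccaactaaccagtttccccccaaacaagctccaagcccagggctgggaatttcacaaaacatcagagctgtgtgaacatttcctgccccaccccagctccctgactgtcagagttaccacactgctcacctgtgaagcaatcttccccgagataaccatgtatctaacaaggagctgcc
S100a4, chr3:90603520-90603769, plus strand: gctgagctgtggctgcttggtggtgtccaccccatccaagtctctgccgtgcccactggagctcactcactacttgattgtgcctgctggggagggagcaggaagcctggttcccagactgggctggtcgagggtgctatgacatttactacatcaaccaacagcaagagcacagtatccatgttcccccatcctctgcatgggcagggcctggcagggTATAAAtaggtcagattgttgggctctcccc
S100a6, chr3:90612644-90612893, plus strand: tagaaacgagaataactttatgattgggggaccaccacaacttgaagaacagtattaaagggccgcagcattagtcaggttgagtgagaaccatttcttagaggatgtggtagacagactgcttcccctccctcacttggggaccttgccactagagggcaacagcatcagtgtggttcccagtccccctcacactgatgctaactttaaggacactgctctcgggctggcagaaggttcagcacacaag

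Of the 10 member genes 9 had a RefSeq window, 10 windows in all. Both strands were searched for 4 motifs, with no overlap between the matches marked here. TATAAA lay near the start of S100a8 and of S100a4, beginning 30 and 31 bases upstream. At any position on either strand it was present in 12.4% of 32851 windows of the same length. The share with it near the start was not counted. TTNNGCAA was found once, on the opposite strand of S100a9, beginning 236 bases upstream (9.56% of windows). None of these 4 windows held TGANTCA (AP-1, 6.75% of windows) or TTCNNNGAA (STAT, 7.02%). Among the other members TGANTCA was present in windows of S100a11 and S100a16. A match describes the letters only. In the RefSeq order S100a8 and S100a9 are neighbours on chromosome 3, between S100a7a and Pglyrp4, and S100a4, S100a5 and S100a6 follow each other on the same chromosome. All members lie on chromosome 3 except S100b, which lies on chromosome 10.

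The question of the comparison is which kidney genes differ after oral acetate, here for the myeloid and for the epithelial or stromal members. S100a8, the calgranulin A chain of calprotectin, was 4.52 in the control, 7.22 in acetate-fed mouse 1 and 5.46 in acetate-fed mouse 2. Both acetate-fed values lay above the control, and the control value lay below its array's median of 4.91. The acetate-fed mean was 6.34 ± 1.25 (SD, n = 2), 3.52-fold above the control. S100a9, the calgranulin B chain, was 4.93 in the control mouse, 7.22 in mouse 1 and 5.89 in mouse 2, with an acetate-fed mean of 6.56 ± 0.94 (SD, n = 2), 3.10-fold above the control. For both genes mouse 1 was high and mouse 2 lay between it and the control. The acetate-fed mice differed from each other by 3.39-fold at S100a8 and by 2.50-fold at S100a9, more than mouse 2 differed from the control. Mouse 1 was at least 2-fold above mouse 2 at these 2 member probe sets only, and at 0.392% of all tested probe sets.

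**Figure D1:**
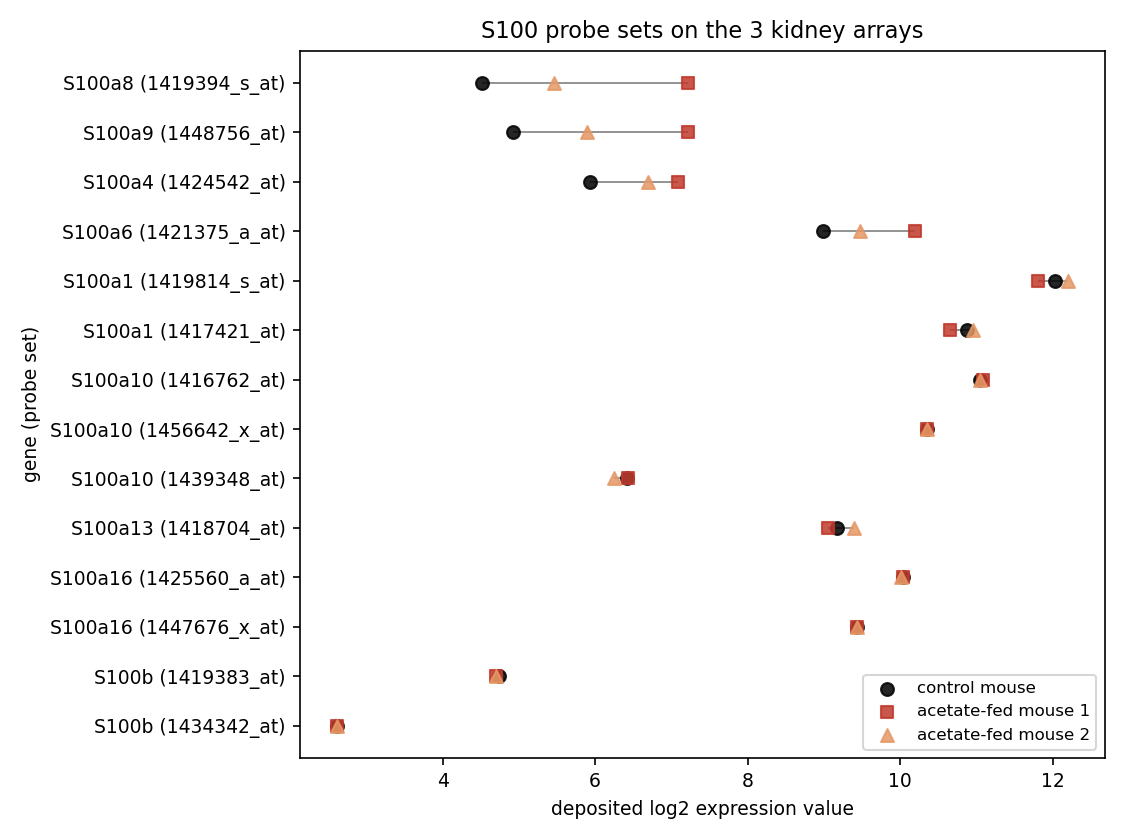
Deposited log2 expression value (horizontal axis) of each S100 probe set (rows) on the 3 arrays, 1 point per mouse, with a line from the lowest to the highest. S100a8 runs from 4.52 in the control to 7.22 in mouse 1, while the rows below S100a6 span little, and positions of different rows are not comparable as levels.

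S100a4, also called fibroblast-specific protein 1 and found in fibroblasts and in leukocytes, was 5.93 in the control mouse, 7.09 in mouse 1 and 6.70 in mouse 2. The acetate-fed kidneys lay 1.31-fold apart and both were above the control, by 2.24-fold and 1.71-fold, with a mean of 6.89 ± 0.28 (SD, n = 2). S100a6, calcyclin, was 8.99 in the control mouse, 10.19 in mouse 1 and 9.47 in mouse 2, which is 2.30-fold and 1.40-fold higher, with a mean of 9.83 ± 0.51 (SD, n = 2). The order control, mouse 2, mouse 1 was the same for all 4 genes. Of these genes S100a4 had the closest pair of acetate-fed values.

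In limma's test across 17923 probe sets, Benjamini-Hochberg adjusted, 4 of the 11 member probe sets that entered it were called higher in acetate-fed kidneys, against 6.55% of all, and 0 lower, against 4.97%. The count lower at an unadjusted p under 0.05 was also 0. The mean log2 differences with limma's standard error were 1.82 ± 0.33 for S100a8 (adjusted p = 0.00029), 1.63 ± 0.27 for S100a9 (adjusted p = 8.2e-05), 0.97 ± 0.16 for S100a4 (adjusted p = 0.00013) and 0.84 ± 0.17 for S100a6 (adjusted p = 0.0011). All 4 calls were lost after quantile normalization (adjusted p of 0.44, 0.38, 0.27 and 0.40 in the same order), after median centring (0.35, 0.29, 0.17 and 0.32) and with tied probe sets kept in the fit (0.78, 0.71, 0.45 and 0.72). In the upper 40% of probe sets by mean, which leaves S100a8 out, the limma calls of S100a9, S100a4 and S100a6 were lost too (adjusted p = 0.12, 0.050 and 0.15). An exact permutation test over 1 control and 2 acetate-fed samples cannot go below p = 0.333.

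**Figure D2:**
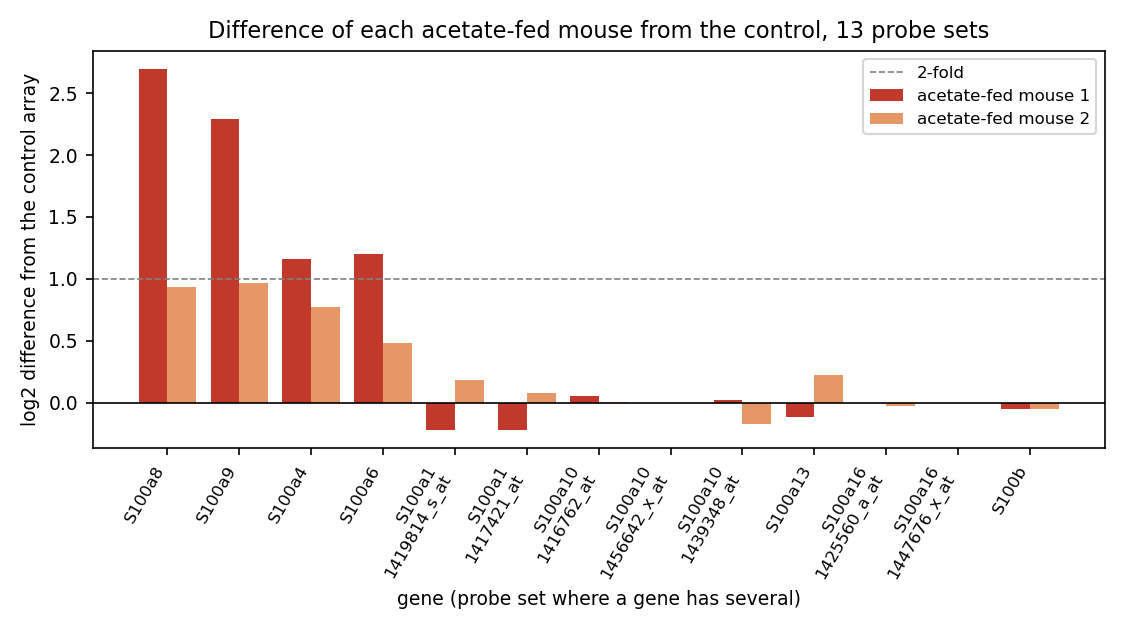
Log2 difference of each acetate-fed mouse from the control array (vertical axis) for the 13 member probe sets past the filter, with bars for mouse 1 and mouse 2 and a dashed line at 2-fold. The bars of S100a8, S100a9, S100a4 and S100a6 pass the line in mouse 1 and stay under it in mouse 2, where S100a9 comes nearest at 0.97.

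The remaining members were close to the control. S100a1, best known from heart muscle, has 2 probe sets: one was 12.02, 11.80 and 12.20 in the control, mouse 1 and mouse 2, and the other 10.88, 10.65 and 10.95. Both were lower in mouse 1 and higher in mouse 2 than in the control, so the acetate-fed mice lay on either side of it (mean differences -0.02 and -0.07, adjusted p = 0.997 and 0.957 by limma). S100a13, which takes part in the release of FGF1 from cells, had the same pattern at 9.17, 9.06 and 9.40 (mean difference 0.06, adjusted p = 0.997).

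S100a10, or p11, forms a tetramer with annexin A2 and does not bind calcium. Its main probe set read 11.04, 11.09 and 11.04 in the control, mouse 1 and mouse 2, another 6.41, 6.43 and 6.24, and the last was 10.35 on all 3 arrays. S100a16 was 10.03 in the control and in mouse 1, with a difference of -0.03 in mouse 2, on one probe set, and between 9.43 and 9.44 on the other. S100b, a glial gene also made by fat cells, was 4.75 in the control and 4.70 in both acetate-fed mice, and its other probe set, at 2.62, 2.61 and 2.62, was under the filter. None of these S100a10, S100a16 and S100b values lay more than 1.13-fold from the control. The 9 member probe sets without a call ranged from -0.22 to 0.23 in their log2 differences. The S100b pair and 1 S100a10 pair of acetate-fed values were exactly tied, so these 2 probe sets were not tested. With tied probe sets kept, S100b was called lower by limma (adjusted p = 0.014), at a log2 difference of -0.05 and a measured spread of 0.

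Counted over all 13 probe sets, 5 were higher in both mice, against 26.9% of all tested probe sets, and 1 lower in both, against 27.5%. The one with the same value on all arrays compares with 20.5% of all. The median difference of S100a8 and S100a9 was 2.50 in mouse 1 and 0.95 in mouse 2, and that of the 7 other measured genes 0.00 and 0.18. The myeloid pair thus lay 2.50 above the others in mouse 1 and 0.77 in mouse 2, a mean of 1.63 on the log2 scale. The median over all tested genes was 0.00 in each mouse. S100a4 and S100a6 stood apart from the remaining 5 epithelial or stromal genes, so the line between genes that were higher and genes near the control did not follow the grouping into myeloid and other members.

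In RNA of whole kidney, more cells of a type and more RNA per cell cannot be told apart. Neutrophil markers were therefore set beside S100a8 and S100a9. Of 12 neutrophil genes 10 had a probe set and 6 passed the filter. Of these, 3 were higher in both mice, against 26.9% of all tested probe sets. The list median was 0.04 in mouse 1, 0.03 in mouse 2. The granule genes Ngp and Elane had the same value on all 3 arrays, 4.81 and 4.75. Camp was 4.75, 4.75 and 4.63 in the control, mouse 1 and mouse 2, and Ltf 4.68, 4.76 and 4.76. These 4 encode proteins of neutrophil granules, and the largest fold among them was 1.09, for Camp in mouse 2. All their values lay below the medians of their arrays (4.91, 4.94 and 4.93), and detection was not measured. These 4 therefore cannot show whether neutrophils differed. Ngp, Elane and Ltf were tied and not tested. Of the other 3, Csf3r, the G-CSF receptor, was called higher (4.23, 5.04 and 4.59, adjusted p = 0.033 by limma), as were 6.55% of all. Its control and mouse 2 values also lay below the medians of their arrays. Mmp9, above them, was 5.20, 5.66 and 5.27 and not called (adjusted p = 0.46 by limma). With tied probe sets kept, Ltf was called higher and Csf3r was not. A summed level adds the linear values of a list, so its brightest probe sets weigh most. For the 6 it was 163 in the control mouse, 192 in mouse 1 and 170 in mouse 2. Cxcr2, Itgam, Mmp8 and Mpo were under the filter.

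Most monocyte and macrophage genes were higher as well. Of 10 genes, all past the filter, 8 were higher in both mice, against 26.9% of all tested probe sets. By limma 6 were called higher, against 6.55% of all. The list median was 1.23 in mouse 1, 0.57 in mouse 2. Lyz2, lysozyme, was 8.49 in the control mouse, 11.59 in mouse 1 and 10.26 in mouse 2. The other calls were Ms4a7, Ctss, Cd68, Adgre1 and Csf1r, at 3.29-fold, 3.22-fold, 2.26-fold, 2.22-fold and 1.42-fold on average. Ccr2, the receptor of inflammatory monocytes, was 6.04, 6.12 and 6.04. The summed level was 1813 in the control mouse, 6229 in mouse 1 and 3505 in mouse 2, in the order of S100a8. It is weighted towards bright probe sets such as those of Lyz2 and Csf1r. The part of these cells in the S100a8 and S100a9 differences was not tested.

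Fibroblast and matrix genes were set beside S100a4 and S100a6. All 10 were higher in both mice, against 26.9% of all tested probe sets, and 7 were called higher by limma, against 6.55%. The list median was 1.33 in mouse 1, 0.44 in mouse 2. Col3a1, a fibrillar collagen chain, was 8.33 in the control mouse, 11.15 in mouse 1 and 9.40 in mouse 2. Vim, the intermediate filament vimentin, was 9.05, 10.34 and 9.63, and Pdgfra, a fibroblast receptor, 6.95, 8.10 and 7.47. The other calls were Col1a1, Col1a2, Postn and Pdgfrb, at 3.76-fold, 2.90-fold, 1.87-fold and 1.56-fold on average. The summed level was 3973 in the control mouse, 11922 in mouse 1 and 5558 in mouse 2, again in the order of the 4 S100 genes, and its part in their differences was not tested. Urothelial genes had medians of 0.00 and -0.07 over 5 genes, with summed levels of 432, 482 and 429. Of the 4 tested by limma 1 was called higher, against 6.55% of all. It was Krt5, a basal keratin (5.95, 6.95 and 6.58). Upk3a, at 6.60, 6.33 and 6.14, was lower in both mice and not called.

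**Figure D3:**
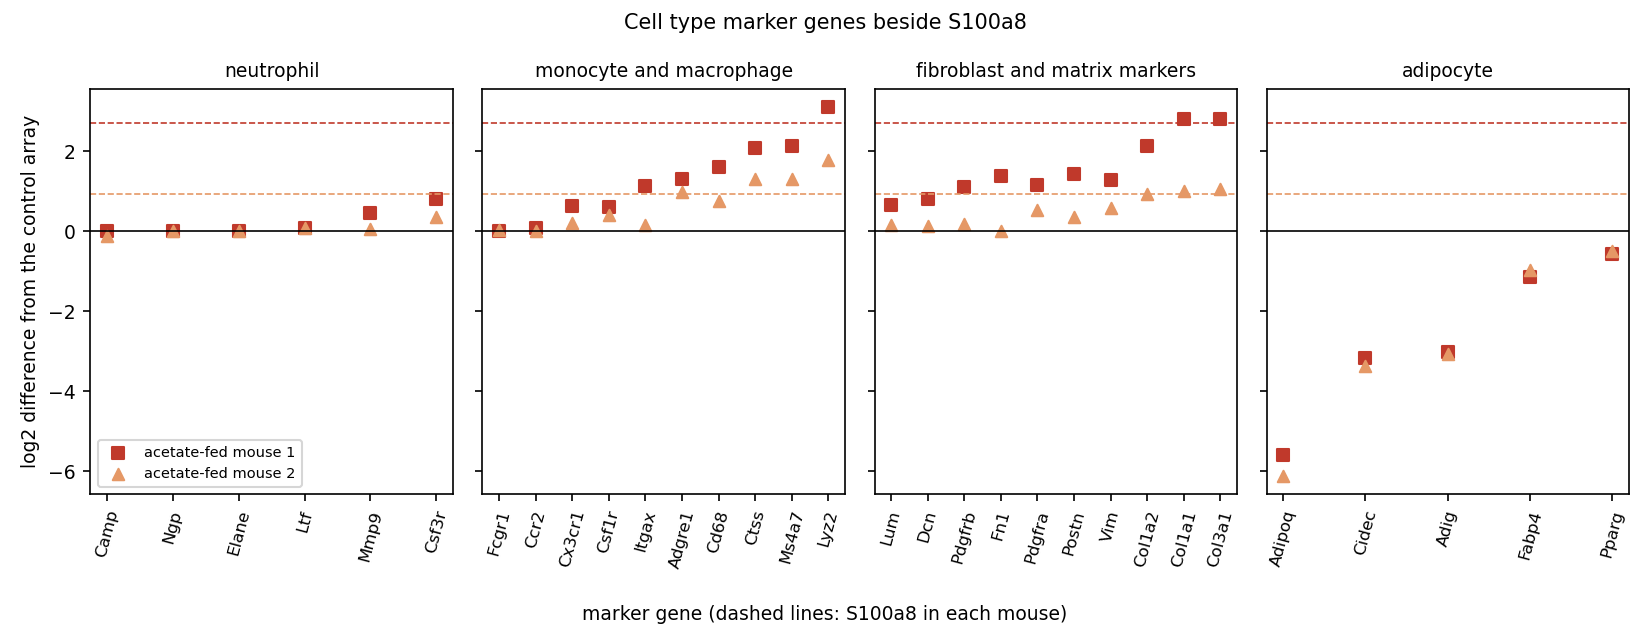
Log2 difference from the control array (vertical axis) of marker genes past the filter in 4 cell type lists, 1 point per acetate-fed mouse, with dashed lines at the S100a8 difference in each mouse. Neutrophil genes lie near 0 apart from Csf3r and Mmp9, and some macrophage and matrix genes such as Lyz2 and Col3a1 reach the S100a8 lines. Adipocyte genes lie below 0, but Adipoq, Adig and Cidec passed the filter only through their high control value.

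Markers of fat cells and of Schwann cells, which express S100b, were set beside it. Lep, leptin, was under the filter. Adipoq, Adig and Cidec passed it only through their high control value, so their being lower followed from the filter and no count or median of the list is given. Adipoq, adiponectin, was 9.98 in the control mouse, 4.38 in mouse 1 and 3.87 in mouse 2. Adig, Cidec, Fabp4 and Pparg had mean differences of -3.05, -3.26, -1.06 and -0.54. The summed level was 3308 in the control mouse, 1008 in mouse 1 and 1114 in mouse 2. It includes Adipoq, Adig and Cidec, so its being lower also followed in part from the filter. Of the Schwann cell genes 3 passed the filter, with summed levels of 253, 265 and 264. Mbp was 6.93, 7.17 and 7.16 (adjusted p = 0.41 by limma). Ngfr, at 6.11, 5.89 and 5.89, and Sox10, at 5.95 on all 3 arrays, were tied and not tested, and Ngfr was called lower with tied probe sets kept.

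The list of annexins and other partner genes also holds Plat and Plau, which encode secreted proteases. In it 8 of 10 genes were higher in both mice, against 26.9% of all tested probe sets. Of the 9 tested by limma 4 were called higher, against 6.55% of all. The list medians were 0.54 and 0.28. Anxa2, the partner of S100a10, was 10.06 in the control mouse, 11.05 in mouse 1 and 10.57 in mouse 2 (adjusted p = 0.00048 by limma), 1.99-fold and 1.43-fold higher, while S100a10 itself lay within 1.04-fold of the control on its main probe set. Anxa1, the partner of S100a11, was 7.96, 9.33 and 8.45, Anxa5 10.63, 11.21 and 11.09, and Plat, tissue plasminogen activator, 9.29, 9.81 and 9.67. Of the receptors and sensors of extracellular S100 proteins, 6 of 9 genes were higher in both mice, against 26.9% of all. By limma 2 of the 7 tested were called higher, against 6.55%. The medians of this list were 0.05 and 0.17. Cd14, a co-receptor of TLR4, was 7.31 in the control mouse, 8.65 in mouse 1 and 7.85 in mouse 2 (adjusted p = 0.00092 by limma), and Sdc1, the proteoglycan syndecan-1, 6.84, 7.74 and 7.11. Tlr4 itself was 4.63 in the control and 4.86 in both acetate-fed mice, a tied pair that was not tested, and Ager, which encodes RAGE, was 5.85, 5.87 and 5.89. Cd14 is also a monocyte gene.

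**Figure D4:**
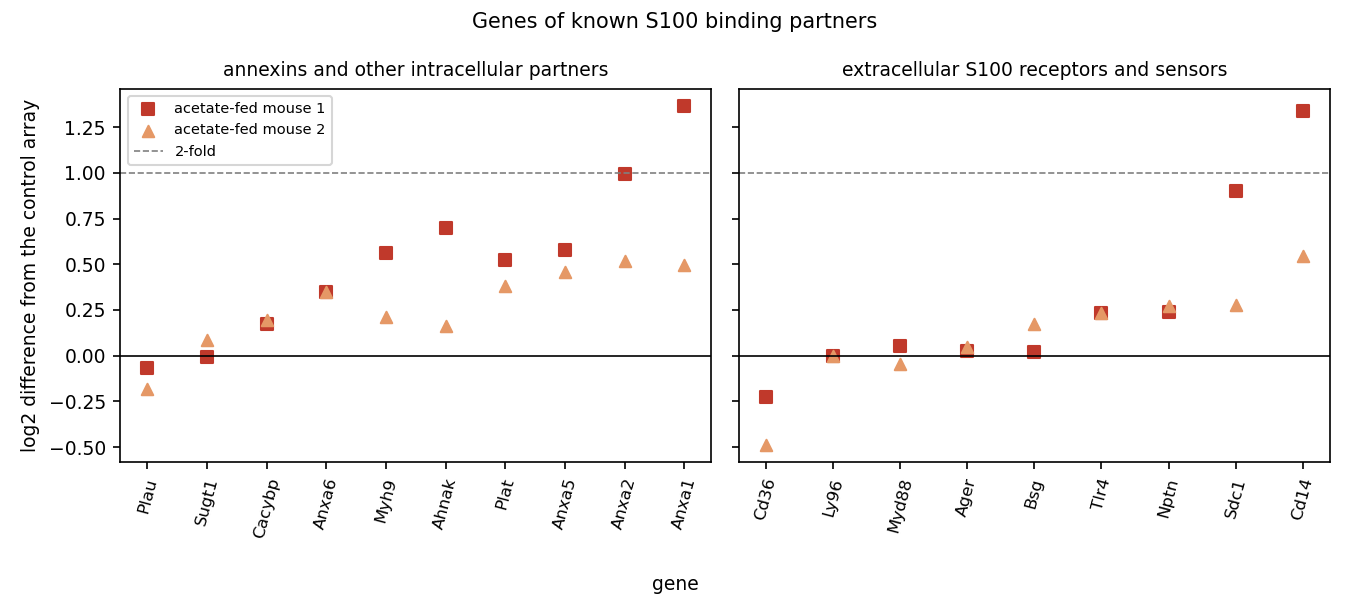
Log2 difference from the control array (vertical axis) of annexins and other partner genes (left) and of receptors and sensors (right). Each acetate-fed mouse has 1 point per gene. The left list also holds Plat and Plau, which encode secreted proteases. Anxa1 and Cd14 pass the dashed 2-fold line in mouse 1, at 1.37 and 1.34, and none does in mouse 2.

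In limma's test 6.55% of all probe sets were called higher and 4.97% lower. Over all marker and partner lists 29 genes were called by limma, counting both directions. Of these, 0 kept the call after quantile normalization and 7, Adipoq among them, in the upper 40% of probe sets by mean. After median centring 3 kept it, Adipoq, Adig and Cidec, and with tied probe sets kept 1, Adig. These 3 adipocyte genes, counted in the 29, had passed the filter only through their high control value.

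Among other S100 genes on the array, S100g was 1.46-fold above the control in mouse 2 and 1.04-fold below it in mouse 1. S100g, the vitamin D-dependent calbindin-D9k of the distal tubule, was 12.97 in the control mouse, 12.91 in mouse 1 and 13.51 in mouse 2, S100a14 5.92, 5.87 and 6.23, and S100pbp, which encodes an S100P-binding protein, 7.16, 7.16 and 7.38. None of the 3 was called (adjusted p from 0.402 to 0.872 by limma), and S100a3 and S100a5 were under the filter.

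The genes most like S100a8, by the distance between their 2 log2 differences from the control over 3 arrays, were Cd44 (distance 0.11), Col1a1 (0.13), Col3a1 (0.18) and Dio2 (0.38). Those nearest S100a9 were Thy1 (0.05), Ccl12 (0.13), Col1a2 (0.15) and Osmr (0.23). Nearest S100a6 were Kdelr3 (0.03), Ccn4 (0.04), Tnfsf13b (0.05) and Smoc2 (0.05). Cd44, the hyaluronan receptor, was 4.35 in the control mouse, 7.12 in mouse 1 and 5.21 in mouse 2, and Thy1, a surface protein of fibroblasts and T cells, 5.14, 7.38 and 6.11. Dio2, at 3.89 in the control mouse, passed the filter through its acetate-fed values. The 6 neutrophil genes past the filter are not among these 12 genes. As the 12 were picked by these same differences, that absence is no test.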

How the data were processed

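Total RNA of 3 mouse kidneys was labelled with biotin and hybridised to 1-colour arrays. The authors deposited log2 values for 45101 probe sets, with medians of 4.91, 4.94 and 4.93 and nearly equal quartiles. The submitters' processing notes list MAS5, with no role stated. The summary step was not given in the sources used here, detection calls were not used, and precision is limited by the number of arrays. In these values 44.9% of probe sets are exactly tied between the acetate-fed arrays.

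Groups came from the treatment agent in the labels. Probe sets were named from the platform annotation, checked by Entrez identifier in RefSeq (34741 of 34945 single symbols matched, 0 changed; 932 had several symbols and 9160 were not listed). After 64 Affymetrix controls were left out, the upper 60% of probe sets by mean over the 3 arrays were kept (27022, mean of at least 4.21). Shares of all tested probe sets refer to these, and those for limma to the 17923 that are not tied between the acetate-fed arrays. limma 3.58.1 (R 4.3.3; lmFit, eBayes with an intensity trend) compared acetate with control on the log2 values, with Benjamini-Hochberg adjustment at 0.05. Tied pairs were left out because a spread of 0 is no measured spread. The 1 residual degree of freedom comes from the acetate-fed pair, the single control is taken to vary as that pair does, and most of the spread (26.5 prior degrees of freedom) is borrowed from all probe sets, so a call reflects size more than agreement between the mice. P-values measure only the spread between these samples. The fit was tested on simulated data.

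Where a gene had several tested probe sets, that of highest mean stands for it. Genes were named by rule: all members, other S100 genes, the called genes of each list (otherwise the 3 with the largest mean difference), and the 4 genes nearest to S100a8, S100a9 and S100a6; list members without a call were named after their values were seen. Members, lists and the choice of test were made with earlier results of these data known. Scaling, filter, trend, ties, pseudocount, fold, probe set and left-out mice were varied. Python 3.11.15, pandas 2.3.3 and matplotlib 3.10.9 were used for tables and plots.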

Additional observations from a re-analysis of the deposited data

How the results depend on the processing

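The 4 members called higher by limma became 0 after quantile normalization, after median centring, in the upper 40% of probe sets, which leaves out S100a8, and with tied probe sets kept; with no filter and with no trend the count was 4. Members called lower went from 0 to 1, S100b, with tied probe sets kept. Over all tested probe sets 2064 calls became 0 after quantile normalization, 40 after median centring and 379 in the upper 40%, where 2559, 2753 and 2547 had an unadjusted p under 0.05; with tied probe sets kept there were 2846 calls. The median prior degrees of freedom, 26.5 in the main fit, were 2.45, 3.53 and 5.69 in these 3 fits in turn. With tied probe sets kept they were 0.36. With no filter they were infinite, so that fit made no use of a probe set's own spread. The cause of these shifts was not tested. The filter, tie and trend settings leave a mean difference unchanged by construction, and median centring shifts all probe sets alike. After quantile normalization the mean differences of S100a8, S100a9, S100a4 and S100a6 were 1.80, 1.62, 0.94 and 0.85. The difference of 1.63 between the myeloid pair and the other members ranged from 1.22 with a pseudocount of 16 on linear values to 1.66 with all probe sets averaged, and from 0.77 to 2.50 when either acetate-fed mouse was left out. Members at least 2-fold higher in every acetate-fed mouse were 0 without mouse 1 and 4 without mouse 2, and 3 at a fold of 1.5. Without a mouse no residual degree of freedom is left, so limma was not run. After quantile normalization 2 uncalled differences changed sign, an S100a1 probe set from -0.02 to 0.0012 and an S100a16 probe set from -0.0017 to 0.011. No paired analysis was possible because the labels number only the acetate-fed mice. The dim control values of S100a8 and S100a9 limit their folds, since detection was not measured here.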

Other observations

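Some S100 and tubule genes ordered the acetate-fed mice the other way round from S100a8, with mouse 2 above mouse 1. Of the 8 tubule genes 5 did so and 3 did not. The share over all tested probe sets was not counted, so this split is not read as a result. The S100 genes named next were picked for this order. S100a10 (0.05 and 0.0016) and S100a16 (0.00 and -0.03) did not have it on their probe sets of highest mean. S100g was -0.06 from the control in mouse 1 and 0.55 in mouse 2, and Calb1, the larger calbindin of the same distal tubule segments, -0.19 and 0.49. S100a14 was -0.06 and 0.31, S100a13 -0.11 and 0.23, and the 2 S100a1 probe sets -0.22 and 0.18, and -0.22 and 0.08. Slc12a3, the thiazide-sensitive cotransporter of the distal tubule, was 0.22 and 0.50, and Aqp2, the water channel of the collecting duct, 0.51 and 1.13. Slc12a1, the cotransporter of the loop of Henle, was 0.50 and 0.71, while Pck1, a gluconeogenic enzyme of the proximal tubule, was -1.27 and -1.04. The 3 with mouse 1 above mouse 2 were Umod (0.14 and 0.11), Slc34a1 (-0.17 and -0.24) and Lrp2 (-0.07 and -0.28). Of the 8 tubule genes Aqp2 and Slc12a1 were called higher and Pck1 lower by limma (adjusted p = 0.00042, 0.00075 and 9.6e-08). Over all tested probe sets 6.55% were called higher and 4.97% lower. The difference between the acetate-fed mice was not tested.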
